A study of Mus musculus with 6 samples.

Results

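The insulin-like growth factor (IGF) system of the mouse testis was described through 10 genes, chosen by symbol from the 55331 genes of the authors' deposited Cuffdiff table. They comprised 2 ligands (Igf1 and Igf2), 3 receptors (Igf1r, Igf2r and Insr) and 5 binding proteins (Igfbp3, Igfbp4, Igfbp5, Igfbp6 and Igfbp7), and each matched exactly 1 row. The knockout animals were Ptbp1 fl/fl; Amh-Cre+/- mice, called Ptbp1_cKO here, and the controls were Ptbp1 fl/fl mice without Cre. Polyadenylated RNA of whole testes at 35 days of age gave 3 libraries for Ptbp1_cKO and 3 for control, all of mixed strain. The Amh promoter drives Cre in Sertoli cells, which line the seminiferous tubules and support the germ cells, whereas the RNA came from all cells of the testis. Floxed Ptbp1 was present in every animal and no group carried Amh-Cre alone, so an effect of the deletion and an effect of the transgene cannot be told apart. PTBP1 binds RNA and regulates splicing, and the series asks what it does in Sertoli cells. Whether libraries of a group stand for separate animals is not labelled.

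IGF1 and IGF2 are secreted peptides that act mainly through the receptor tyrosine kinase IGF1R and, together with insulin, through the related receptor INSR. IGF2R has no kinase: it binds IGF2 and carries it to the lysosome, and it also sorts lysosomal enzymes that carry mannose 6-phosphate. Secreted binding proteins hold the ligands, prolong their life and limit their access to receptors, and proteases release the ligands again. In mice, signalling through INSR and IGF1R in Sertoli cells is known to be needed for their proliferation and for a testis of full size.

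The table gives 1 fragments-per-kilobase-per-million value (FPKM) per group, in which the authors combined 3 libraries, and holds no value per library. No SD can be given, and p and q (the p adjusted over all tested genes) are those of Cuffdiff in the authors' deposited table. From the steps in which low values moved, 1 FPKM at an effective length of 1 kb rested on about 204 fragments in Ptbp1_cKO and 226 in control. The targeted gene Ptbp1 stood at 46.66 FPKM in Ptbp1_cKO and 49.97 FPKM in control (q = 0.999 in the authors' deposited table). A gene-level value from whole testis does not separate Sertoli cells or a deleted exon, and so leaves the labels unchecked.

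None of the 10 genes passed q under 0.05 in Cuffdiff's test, in either direction. Of all 22048 tested genes 1.16% passed, 0.458% as higher and 0.703% as lower in Ptbp1_cKO, so a count of 0 among 10 is no result about these genes. At an unadjusted p under 0.05, 2 members were higher in Ptbp1_cKO and 0 were lower, namely Igfbp6 and Igf2, while 8.98% of tested genes reached that level and 4.38% did so as higher. With a normal p computed from the deposited statistic, 0 members passed after adjustment, against 0.0863% of all genes with a statistic. Before adjustment that normal p was 0.0938 for Igfbp6 and 0.122 for Igf2, so neither was under 0.05. With the deposited p adjusted again over genes with an FPKM of at least 1, which leaves out Igfbp5, the count of members was also 0, against 1.61% of those genes. The FPKM was nevertheless higher in Ptbp1_cKO for 9 of the 10 genes, against 50.9% of all tested genes, with Igfbp5 the exception. Their median log2 fold change of Ptbp1_cKO over control was 0.32, and that of all tested genes was 0.005. The log2 fold changes of the members ran from -0.09 to 0.50. Genes are not independent replicates, and members that share a cell type can move together, so the shared direction is a description and no test.

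**Figure D1:**
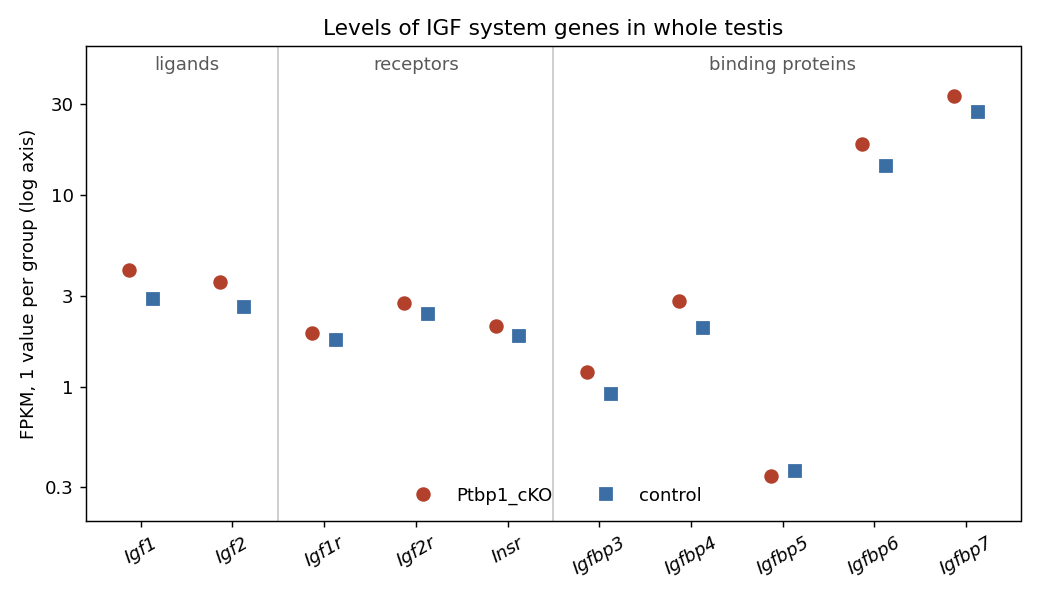
FPKM of each member in Ptbp1_cKO (circles) and control (squares), 1 authors' value per group on a log axis, with genes grouped by role. Igfbp7 and Igfbp6 stand far above the others in both groups, and the circle is above the square for every gene except Igfbp5.

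Igfbp6 and Igf2 had the lowest p of the members, and the promoter windows of both are shown for that reason. The windows run from 250 bases before to 50 bases after a RefSeq transcript start (build GRCm38.p6) and are written on the strand of the gene. Igf2 has 4 such starts, and a gene-level FPKM sums over them, so it does not tell which start was used. Capitals mark the GC box GGGCGG, searched on both strands. They also mark TATAAA, the letters of the TATA element, searched likewise at any position, and no matches of these motifs overlap.
Igfbp6, chr15:102143936-102144235, plus strand: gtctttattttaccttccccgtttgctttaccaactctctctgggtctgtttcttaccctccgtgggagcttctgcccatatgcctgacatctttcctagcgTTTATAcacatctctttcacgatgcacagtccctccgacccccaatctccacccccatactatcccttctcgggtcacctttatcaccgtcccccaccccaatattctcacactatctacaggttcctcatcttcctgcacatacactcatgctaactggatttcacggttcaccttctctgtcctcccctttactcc
Igf2 start 1, chr7:142666767-142667066, minus strand: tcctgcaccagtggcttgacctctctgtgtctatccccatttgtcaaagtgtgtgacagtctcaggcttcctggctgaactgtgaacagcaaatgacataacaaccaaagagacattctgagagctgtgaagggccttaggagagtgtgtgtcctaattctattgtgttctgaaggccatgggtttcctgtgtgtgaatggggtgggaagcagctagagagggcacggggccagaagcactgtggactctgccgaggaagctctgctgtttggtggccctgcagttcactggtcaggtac
Igf2 start 2, chr7:142661222-142661521, minus strand: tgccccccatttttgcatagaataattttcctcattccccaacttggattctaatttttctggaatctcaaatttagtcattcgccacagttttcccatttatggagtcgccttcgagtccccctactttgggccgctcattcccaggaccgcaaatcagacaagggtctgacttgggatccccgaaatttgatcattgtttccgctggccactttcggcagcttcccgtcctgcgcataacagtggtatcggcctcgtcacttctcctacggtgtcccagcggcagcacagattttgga
Igf2 start 3, chr7:142658755-142659054, minus strand: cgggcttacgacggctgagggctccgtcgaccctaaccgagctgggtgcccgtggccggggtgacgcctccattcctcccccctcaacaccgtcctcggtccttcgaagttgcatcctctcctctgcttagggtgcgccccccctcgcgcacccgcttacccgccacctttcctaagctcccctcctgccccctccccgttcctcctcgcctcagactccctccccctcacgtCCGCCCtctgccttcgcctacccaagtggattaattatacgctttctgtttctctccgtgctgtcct
Igf2 start 4, chr7:142657447-142657746, minus strand: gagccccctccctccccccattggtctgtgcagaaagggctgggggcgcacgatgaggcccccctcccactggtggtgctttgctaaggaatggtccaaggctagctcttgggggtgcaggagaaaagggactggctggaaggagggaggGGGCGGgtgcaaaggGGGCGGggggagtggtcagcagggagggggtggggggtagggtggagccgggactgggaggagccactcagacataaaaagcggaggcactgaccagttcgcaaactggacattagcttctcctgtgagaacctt
The Igfbp6 window held 1 TATAAA and no GC box. That match is read on the opposite strand and lies well before the transcript start, so it is not shown to be a TATA element of this promoter. Of the Igf2 windows, those of starts 3 and 4 held 1 and 2 GC boxes, while the other two held neither motif. The RefSeq start of Igfbp6 lies 176 bp upstream of the gene start in GENCODE M21.

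Over the 9 members with a RefSeq window, all but Insr, there were 12 windows, 5 of which held a GC box (41.7%, against 35.7% of all 32851 windows). TATAAA was present in 2 of the 12 (16.7%, against 13.6% of all windows), those of Igfbp4 and Igfbp6. The median GC content was 64.0% in the member windows and 52.7% in all windows. The promoter of Igf1r was the richest of the 12, at 76.0% GC with 48 CpG dinucleotides, and those of Igfbp6 and the second Igf2 start were the poorest, at 49.7% each. These matches describe the letters of the windows and say nothing about binding.

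Both ligands had a higher FPKM in Ptbp1_cKO, and together they had the highest median log2 fold change of the 3 roles, 0.47. Igf1 (ENSMUSG00000020053.18, chromosome 10, 87858265 to 87937042, mm10) encodes the growth factor that mediates much of the action of growth hormone and is also made locally in the testis. Its level was 4.08 FPKM in Ptbp1_cKO and 2.87 FPKM in control, a fold of 1.42 and the highest of the members, with p = 0.132 and q = 0.771 in the authors' deposited table. Igf2 (ENSMUSG00000048583.16, chromosome 7, 142650766 to 142666816), a fetal growth factor expressed from the paternal allele in most tissues, had 3.51 FPKM in Ptbp1_cKO and 2.61 FPKM in control. That fold of 1.35 was smaller than that of Igf1 but had p = 0.004 and q = 0.154 in the authors' deposited table. The ratio of Igf1 to Igf2 FPKM was 1.16 in Ptbp1_cKO and 1.10 in control, so Igf1 was the somewhat more abundant ligand transcript in each group. Igf2 shares exons on its own strand with Gm49394, annotated as protein-coding and listed at 0.0864 FPKM in Ptbp1_cKO and 0.0713 FPKM in control. Reads shared by the pair cannot be assigned with certainty. The antisense gene Igf2os also overlaps exons of Igf2, on the opposite strand, and was at 0.0352 FPKM in Ptbp1_cKO and 0.0373 FPKM in control.

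Igf1, Igfbp4, Igf2, Igfbp6 and Igfbp3 had the largest folds and also the lowest deposited p of the members, but not in the same order. Divided by its statistic, the log2 fold change was 0.57 for Igf1, 0.28 for Igf2 and 0.23 for Igfbp6 in the authors' deposited table. This quotient is the standard error of the log2 fold change if the statistic is the fold over its error, a definition not given in the sources used here. On that reading Igf1 had the widest error of the 10 genes and Igfbp6 the narrowest, and the other 8 ran from 0.28 (Igf2) to 0.45 (Igfbp4).

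The 3 receptors were low and close to each other, and their folds of 1.08 to 1.14 were smaller than those of either ligand. Igf1r (ENSMUSG00000005533.10, chromosome 7, 67952827 to 68233668), the main signalling receptor of both ligands, stood at 1.92 FPKM in Ptbp1_cKO and 1.77 FPKM in control (q = 0.999 in the authors' deposited table). Insr (ENSMUSG00000005534.10, chromosome 8, 3122061 to 3279617), the insulin receptor, stood at 2.09 FPKM in Ptbp1_cKO and 1.85 FPKM in control (q = 0.904 in the authors' deposited table). Splicing of 1 Insr exon is known to set its affinity for IGF2, but a gene-level FPKM does not resolve exons. Igf2r (ENSMUSG00000023830.14, chromosome 17, 12682406 to 12769664), which clears IGF2, stood at 2.74 FPKM in Ptbp1_cKO and 2.40 FPKM in control (q = 0.965 in the authors' deposited table). The summed receptor level was 6.74 FPKM in Ptbp1_cKO and 6.02 FPKM in control. Igf2r is imprinted in mice, as is Igf2, and is expressed mainly from the maternal allele. Airn, the non-coding RNA that silences the paternal Igf2r allele, starts within the gene on the opposite strand without overlapping its exons, and was at 0.281 FPKM in Ptbp1_cKO and 0.232 FPKM in control.

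Binding proteins spanned the widest range of levels and held the most abundant members. Igfbp7 (ENSMUSG00000036256.13, chromosome 5, 77349240 to 77408041), a secreted protein that binds IGFs only weakly and is found in blood vessel walls and matrix, had 32.7 FPKM in Ptbp1_cKO and 27.0 FPKM in control. Its fold of 1.21 had p = 0.241 and q = 0.913 in the authors' deposited table. An exon of Igfbp7 overlaps one of Polr2b, a subunit of RNA polymerase II on the opposite strand, which stood at 34.8 FPKM in Ptbp1_cKO and 39.3 FPKM in control. The libraries were stranded, per the labels, but whether the counting used strand is not given in the sources used here, so reads of that overlap are uncertain. Igfbp6 (ENSMUSG00000023046.6, chromosome 15, 102144362 to 102149511), whose product prefers IGF2 over IGF1, had 18.6 FPKM in Ptbp1_cKO and 14.2 FPKM in control. Its fold of 1.31 had the lowest p of the members, 0.00335, with q = 0.142 in the authors' deposited table. Igfbp7 and Igfbp6 together made up 92.2% of the summed FPKM of the 5 binding proteins in Ptbp1_cKO and 92.5% in control. With Igfbp1 and Igfbp2, which are no members, in the sum, the share was 71.7% in Ptbp1_cKO and 69.2% in control.

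Igfbp4 (ENSMUSG00000017493.12, chromosome 11, 99041244 to 99054392), an inhibitor of IGF action that the protease PAPP-A cleaves, had 2.81 FPKM in Ptbp1_cKO and 2.04 FPKM in control. That fold of 1.38 was second to Igf1 among the members (p = 0.0622, q = 0.603 in the authors' deposited table). Igfbp3 (ENSMUSG00000020427.11, chromosome 11, 7206086 to 7213923), the main IGF carrier of blood, had 1.19 FPKM in Ptbp1_cKO and 0.926 FPKM in control, a fold of 1.29 with p = 0.061 and q = 0.596 in the authors' deposited table. Igfbp5 (ENSMUSG00000026185.8, chromosome 1, 72857932 to 72874884), which binds extracellular matrix, was the lowest member. It alone had a lower FPKM in Ptbp1_cKO, with 0.344 FPKM there and 0.365 FPKM in control (p = 0.664 and q = 0.999 in the authors' deposited table). Thus the 4 binding proteins with a higher value had folds of 1.21 to 1.38, and that of Igfbp5 was 0.941.

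**Figure D2:**
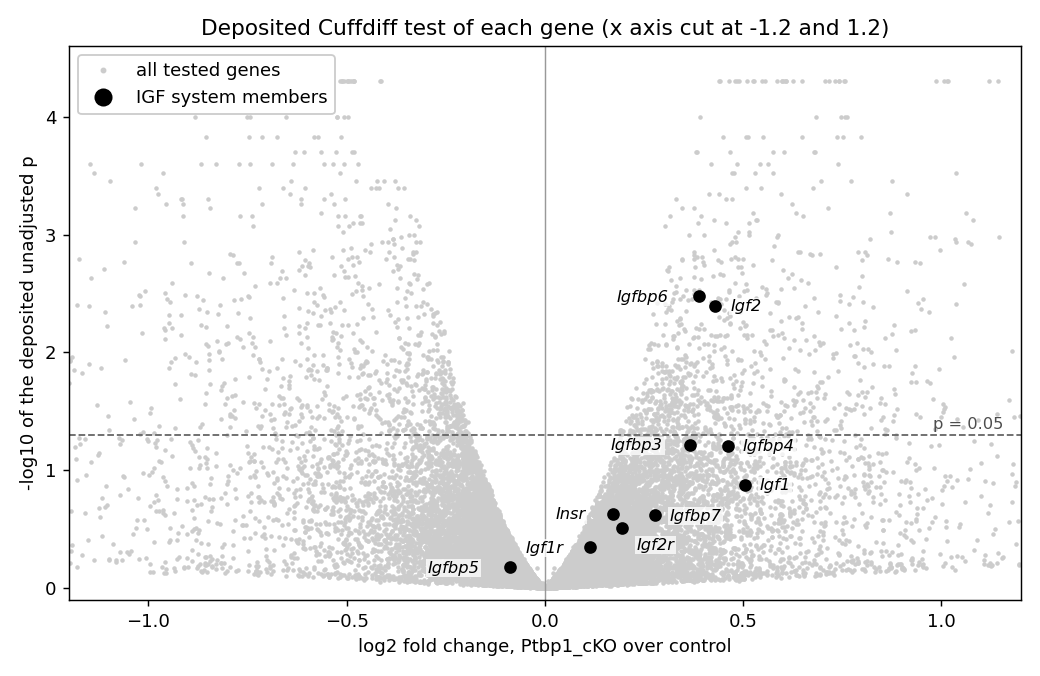
Log2 fold change of Ptbp1_cKO over control against -log10 of the unadjusted p for all tested genes (grey) and the 10 members (black), as deposited; 396 of 22020 genes with a finite fold lie outside the x axis. Of the members, Igfbp6 and Igf2 alone lie above the dashed line, drawn at the unadjusted threshold, and Igfbp5 is the single member left of 0.

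Counting error could be set beside the folds of 6 members. Taking the shortest annotated coding transcript, Igfbp7 rested on about 5684 fragments in Ptbp1_cKO and 5226 in control, and its fold of 1.21 had a 95% Poisson interval of 1.17 to 1.26. The interval was 1.25 to 1.38 for Igfbp6, 1.04 to 1.13 for Igf1r and 1.10 to 1.19 for Igf2r. For Igfbp3 it was 1.106 to 1.504, and for Igfbp5, with about 402 fragments in Ptbp1_cKO and 475 in control, it was 0.824 to 1.07 and included no change. The coding transcripts of Igf1, Igf2, Insr and Igfbp4 differ widely in length, so no interval is given for them. These intervals cover counting error only and take fragments as independent; the spread between animals is not in the table.

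The order of levels was nearly the same in both groups. Igfbp7, Igfbp6, Igf1 and Igf2 were the most abundant in that order in each, and Insr, Igf1r, Igfbp3 and Igfbp5 came last in that order. The single exchange was between Igfbp4 and Igf2r, at 2.81 and 2.74 FPKM in Ptbp1_cKO and at 2.04 and 2.40 FPKM in control. With 1 value per group, neighbours such as these, or Insr and Igf1r, cannot be said to differ in level. Summed over genes, binding proteins stood at 55.7 FPKM in Ptbp1_cKO and 44.5 FPKM in control, and ligands at 7.59 FPKM in Ptbp1_cKO and 5.49 FPKM in control. The ratio of these sums, binding proteins over ligands, was 7.33 in Ptbp1_cKO and 8.11 in control, or 9.43 in Ptbp1_cKO and 10.8 in control with Igfbp1 and Igfbp2 counted in.

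No call was made for the closest relatives outside the 10 genes. Igfbp2, another IGF carrier, lay near Igfbp6 in level, with 15.9 FPKM in Ptbp1_cKO and 15.0 FPKM in control (q = 0.999 in the authors' deposited table). Its log2 fold change of 0.09 was below those of Igfbp3, Igfbp4, Igfbp6 and Igfbp7. Igfbp1, a carrier made mainly in liver, was not tested, at 0.0270 FPKM in Ptbp1_cKO and 0.00724 FPKM in control. Of the insulin genes, Ins1 was listed at 0 in both groups and Ins2 stood at 0.304 FPKM in Ptbp1_cKO and 0.197 FPKM in control (q = 0.939 in the authors' deposited table).

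Across 9 lists of pathway genes, 2 of 60 tested genes passed the threshold, both higher in Ptbp1_cKO, where 0.458% of all tested genes were called higher; none was lower. Stc1 encodes stanniocalcin 1, a secreted inhibitor of PAPP-A, the protease of Igfbp4. It rose to 0.218 FPKM in Ptbp1_cKO, against 0.0547 FPKM in control, a fold of 3.99 (q = 0.00848 in the authors' deposited table). Irs1, the adaptor that couples the insulin and IGF1 receptors to PI3-kinase, rose to 0.383 FPKM in Ptbp1_cKO, against 0.227 FPKM in control, a fold of 1.69 (q = 0.0202 in the authors' deposited table). On the scale of log2(FPKM + 0.1) the log2 fold change of Stc1 was 1.04 and on that of log2(FPKM + 1) it was 0.21, against 1.997 as deposited. That of Irs1 was 0.75 as deposited and 0.17 on the scale of log2(FPKM + 1). Both are low genes, and neither call held when p was computed from Cuffdiff's statistic under a normal distribution. The Benjamini-Hochberg values were then 0.345 for Stc1 and 0.99995 for Irs1. The statistic need not follow a normal distribution, and only 0.0863% of all genes with a statistic passed that way, against 1.16% of tested genes as deposited. Outside the rule for naming genes, and chosen after its values were seen, Irs4, a related adaptor, stood at 0.325 FPKM in Ptbp1_cKO and 0.473 FPKM in control, with p = 0.00565 and q = 0.192 in the authors' deposited table. Foxo3, a transcription factor that AKT holds outside the nucleus and that was chosen in the same way, had 6.44 FPKM in Ptbp1_cKO and 4.96 FPKM in control, with p = 0.0075 and q = 0.223 in the authors' deposited table.

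Apart from Stc1 and Irs1, the pathway lists held no call. Among the binding-protein proteases and stanniocalcins, where Stc1 was 1 of 4 tested, the most abundant gene was the protease Htra1, at 11.6 FPKM in Ptbp1_cKO and 9.07 FPKM in control (q = 0.999 in the authors' deposited table). The receptor adaptors, with Irs1 as 1 higher gene of 9, were led in level by the phosphatase Ptpn1, at 75.3 FPKM in Ptbp1_cKO and 87.5 FPKM in control. None of 10 PI3K-AKT genes passed (median log2 fold change 0.05), and the kinase Pdpk1 stood at 158.1 FPKM in Ptbp1_cKO and 148.0 FPKM in control. The 13 genes of the mTOR, FOXO and GSK3 outputs gave 0 calls (median 0.11), with the kinase Gsk3b at 94.1 FPKM in Ptbp1_cKO and 97.3 FPKM in control. No gene of the 9 in the RAS-MAPK arm passed (median 0.05); Mapk3 stood at 99.1 FPKM in Ptbp1_cKO and 90.5 FPKM in control. Of 3 mRNA-binding proteins of the IGF2BP family, Igf2bp3 was abundant, at 147.1 FPKM in Ptbp1_cKO and 130.7 FPKM in control, and 0 passed (median 0.17). Mannose 6-phosphate sorting gave 0 of 4 (median 0.03), with the small receptor M6pr at 18.3 FPKM in Ptbp1_cKO and 19.8 FPKM in control. The growth hormone receptor axis gave 0 of 5 (median -0.001), with Jak2 at 3.49 FPKM in Ptbp1_cKO and 3.42 FPKM in control. At an unadjusted p under 0.05, Cuffdiff's test had 3 higher and 1 lower of the 60 pathway genes. Over all tested genes 8.98% reached that level and 4.38% did so as higher, so these counts are no result about the pathway genes.

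**Figure D3:**
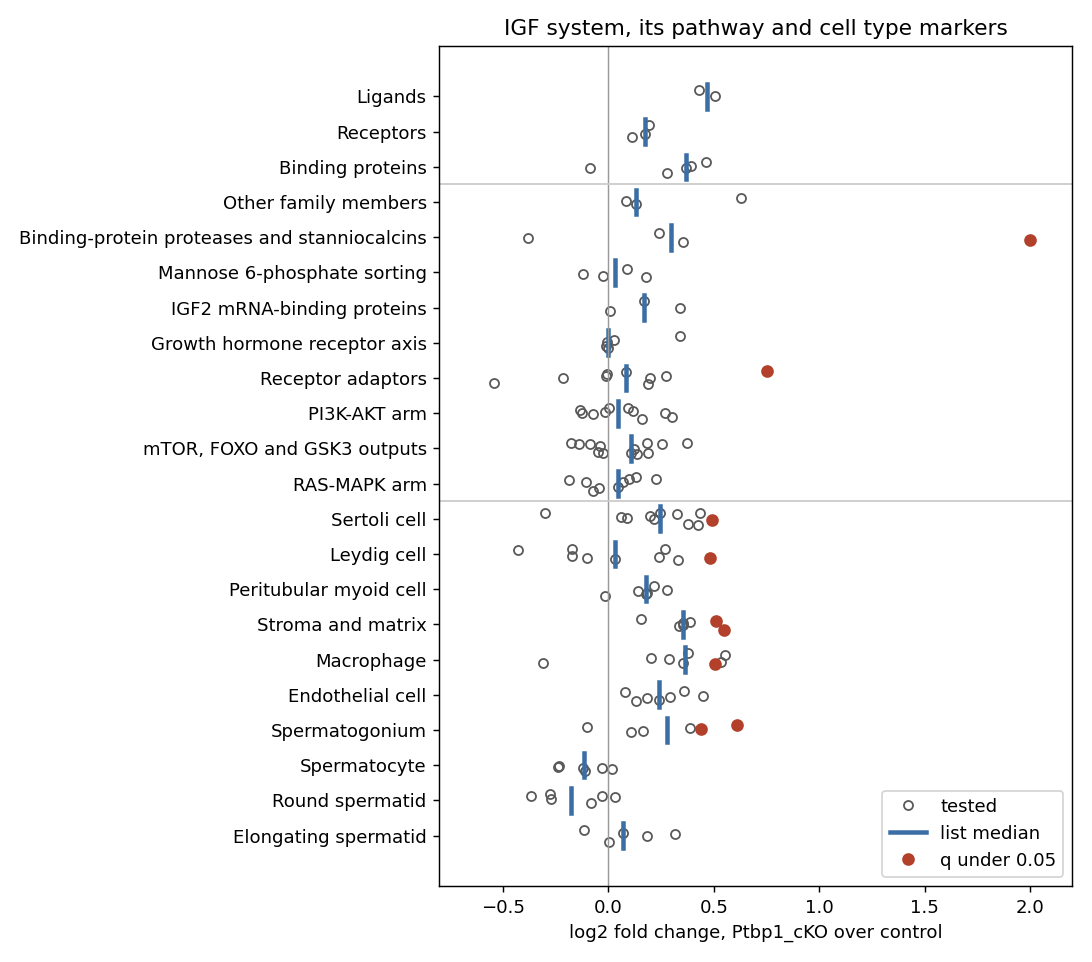
Log2 fold change of Ptbp1_cKO over control for every tested gene of the members, the pathway lists and the cell type lists, with list medians as bars and genes past q under 0.05 filled; the epididymis list, which runs to 7.82, is not drawn. The ligand median (0.47) lies right of the 6 somatic list medians (0.03 to 0.37), the binding-protein median (0.37) beside that of the macrophage list, and the receptor median (0.17) among them, while spermatocyte and round spermatid medians lie left of 0.

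Most somatic cell markers had a higher value in Ptbp1_cKO, as most members did. In whole testis, a different share of cells and a different amount of RNA per cell cannot be told apart. Over 6 somatic lists, 41 of 48 markers had a higher FPKM in Ptbp1_cKO, with a median log2 fold change of 0.26. At an unadjusted p under 0.05 in Cuffdiff's test, 17 were higher and 3 lower. Of all tested genes 8.98% reached that level and 4.38% did so as higher. Markers of a cell type can move together, so these counts are a description and no test. Of the 48, 5 passed as higher, where 0.458% of all tested genes did. None of the 5 held with the normal p from Cuffdiff's statistic, at a Benjamini-Hochberg value of 0.99995 each. Only 0.0863% of all genes with a statistic passed that way, against 1.16% of tested genes as deposited, so this failure says little about the 5. Matrix-producing stroma, in which Igf1, Igfbp4 and Igfbp6 are known to be expressed in many tissues, had a summed marker level of 60.3 FPKM in Ptbp1_cKO and 44.5 FPKM in control. All 7 of its markers were higher, with a median of 0.36. The collagen gene Col1a1 rose to 2.49 FPKM in Ptbp1_cKO, against 1.70 FPKM in control (q = 0.0202 in the authors' deposited table). The proteoglycan gene Dcn rose to 35.4 FPKM in Ptbp1_cKO, against 24.8 FPKM in control (q = 0.00848 in the authors' deposited table). Macrophage markers, 7 of 8 higher, summed to 66.4 FPKM in Ptbp1_cKO and 53.1 FPKM in control (median 0.37); the complement gene C1qb rose to 16.8 FPKM, against 11.8 FPKM in control (q = 0.0202 in the authors' deposited table). Endothelial markers, 7 of 7 higher with 0 calls, summed to 12.6 FPKM in Ptbp1_cKO and 10.6 FPKM in control (median 0.24), with Egfl7 at 4.57 FPKM in Ptbp1_cKO and 3.86 FPKM in control. Peritubular myoid markers, 5 of 6 higher with 0 calls, summed to 213.1 FPKM in Ptbp1_cKO and 188.3 FPKM in control (median 0.18), with Actg2 at 154.4 FPKM in Ptbp1_cKO and 136.5 FPKM in control.

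Sertoli cell markers were all present, at levels of 0.709 to 1199 FPKM in Ptbp1_cKO and 0.598 to 853.6 FPKM in control. Of the 11 markers, 10 were higher (median 0.24), with a sum of 1857 FPKM in Ptbp1_cKO and 1555 FPKM in control. Clu, which encodes the chaperone clusterin, rose to 1199 FPKM in Ptbp1_cKO, against 853.6 FPKM in control (q = 0.00848 in the authors' deposited table). It made up most of the sum, which without it was 658.1 FPKM in Ptbp1_cKO and 701.4 FPKM in control. The only lower marker was Ctsl, named after its values were seen. It stood at 322.5 FPKM in Ptbp1_cKO and 396.6 FPKM in control (q = 0.318 in the authors' deposited table). Leydig cell markers were split, with 5 of 9 higher (median 0.03) and a sum of 1430 FPKM in Ptbp1_cKO and 1155 FPKM in control. Most of that sum was Insl3, a hormone gene, which rose to 1049 FPKM in Ptbp1_cKO, against 749.6 FPKM in control (q = 0.00848 in the authors' deposited table). Without Insl3 the Leydig sum was 381.3 FPKM in Ptbp1_cKO and 405.6 FPKM in control. No marker of these 6 lists was at 0. The part of these cells in the higher IGF system values was not tested.

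Germ cell markers lay on both sides. At an unadjusted p under 0.05 in Cuffdiff's test, 4 of 23 tested were higher and 3 lower, where 8.98% of all tested genes reached that level. The 3 lower were all round spermatid markers. None of 6 spermatocyte markers passed, 5 of them lower, with a summed level of 453.1 FPKM in Ptbp1_cKO and 498.7 FPKM in control (median -0.11), and Sycp3 at 143.5 FPKM in Ptbp1_cKO and 169.01 FPKM in control. Round spermatid markers gave 0 of 6, 5 of them lower, with 627.3 FPKM in Ptbp1_cKO and 691.6 FPKM in control (median -0.18). Acr, the most abundant, was the 1 higher marker, at 192.1 FPKM in Ptbp1_cKO and 188.1 FPKM in control. Elongating spermatid markers gave 0 of 5 tested, 4 of them higher (median 0.07), with a summed level of 46658 FPKM in Ptbp1_cKO and 44361 FPKM in control. Tnp1, the most abundant, was the 1 lower gene, at 18244 FPKM in Ptbp1_cKO and 19773 FPKM in control. Prm1, named after its values were seen, stood at 16362 FPKM in Ptbp1_cKO and 13135 FPKM in control, just outside the threshold (q = 0.0551 in the authors' deposited table). Prm2 was listed at 0 in both groups, with the status that marks too much data. Of the 6 spermatogonial markers (median 0.28), Kit rose to 4.57 FPKM in Ptbp1_cKO, against 3.001 FPKM in control (q = 0.00848 in the authors' deposited table). Uchl1 rose to 54.7 FPKM in Ptbp1_cKO, against 40.3 FPKM in control (q = 0.0420 in the authors' deposited table). With the normal p from Cuffdiff's statistic neither held, at a Benjamini-Hochberg value of 0.99995 each, where only 0.0863% of all genes with a statistic passed. The other 4 did not pass. In the epididymis list of the adjoining tissue, Crisp1 rose to 5.90 FPKM in Ptbp1_cKO, against 0.0482 FPKM in control (q = 0.00848 in the authors' deposited table), as 1 of 3 tested. That call held with the normal p, at a Benjamini-Hochberg value of 6.59e-12, and its log2 fold change of 6.94 became 2.72 on the scale of log2(FPKM + 1). Adam7, also named after its values were seen, did not pass, with 0.323 FPKM in Ptbp1_cKO and 0.00142 FPKM in control (q = 0.999 in the authors' deposited table). That control value lies below the smallest weight of 1 fragment in control, 0.00384 FPKM at an effective length of 1 kb. The remaining tested gene of the list, Rnase10, named likewise, was nearly equal in both groups. It stood at 1.975 FPKM in Ptbp1_cKO and 1.984 FPKM in control (q = 0.999 in the authors' deposited table). Lcn5, not tested and named likewise, was at 0.0126 FPKM in Ptbp1_cKO and 0 in control, and Lcn8 was at 0 in both groups. Whether the members' values include RNA from that tissue was not tested.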

How the data were processed

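Whole testes gave 3 Ptbp1_cKO and 3 control libraries, grouped by title. Per the submitters' processing notes, bcl2fastq 2.20, Trimmomatic 0.38, STAR 2.6.1d, Cufflinks, Cuffdiff and build mm10 were used; which step each did is not stated. The authors' deposited table holds FPKM per group, log2 fold change, a test statistic (a signed score), p-value and q-value. Of 55331 genes, 22048 were tested. Each deposited fold change equalled the ratio of both FPKM values within 1.37e-05 (log2), and Benjamini-Hochberg adjustment gave the deposited q within 5.20e-07.

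Calls are those of the deposited Cuffdiff test (q under 0.05). Members and lists were chosen with earlier results of these data known. The text names all members, Ptbp1, Igfbp1, Igfbp2, Ins1, Ins2 and, from each list, every gene past the threshold and the tested gene with the highest mean FPKM. Irs4, Foxo3, Ctsl, Prm1, Prm2, Adam7, Rnase10, Lcn5 and Lcn8 fall outside this rule and were named after their values were seen. Polr2b, Airn, Gm49394 and Igf2os overlap members. Positions come from GENCODE M21 (98.6% of IDs matched). Longest transcripts of the members matched 0 other genes with BLAST 2.17.0 (95% identity over 80% of length).

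Low FPKM values of intronless genes of 1500 to 6000 bp gave the weight of 1 fragment, after a deduction for fragment length of 264 bp in Ptbp1_cKO and 260 bp in control. All 272 low values in Ptbp1_cKO and all 250 in control lay within 1% of 3 steps. Taken as means of 3 libraries, these stand for depths per library of 65100000 to 72000000 fragments in Ptbp1_cKO and 66300000 to 86900000 in control. A count of 3 fragments in 1 library corresponded to at most 0.0154 FPKM in Ptbp1_cKO and 0.0151 FPKM in control at an effective length of 1 kb. The adjustment and the steps were tested on simulated data. Alternatives changed the p-value, the filter, the pseudocount and the scaling.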

Additional observations from a re-analysis of the deposited data

How the results depend on the processing

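The count of members past the threshold was 0 with the normal p from the statistic and with the deposited p adjusted again over genes with an FPKM of at least 1, where the lowest adjusted p of a member was 0.121. The filter at an FPKM of 0.1 removed no tested gene and altered nothing. The number of members with a higher value in Ptbp1_cKO was 9 on the scales of log2(FPKM + 1) and log2(FPKM + 0.1), after centring on the median gene and at equal total FPKM; no fold change of the 22 genes followed through these scales reversed. The median of the members ran from 0.229 (log2(FPKM + 1)) to 0.367 (equal total FPKM). The 2 pathway calls, Stc1 and Irs1, came to 0 with the normal p, and also to 0 over genes with an FPKM of at least 1, a filter that removes both genes. The 8 cell type calls came to 1, Crisp1, with the normal p. They were 9 over genes with an FPKM of at least 1, where p was adjusted over 15793 genes in place of 22048. Why fewer calls held with the normal p was not tested, and the statistic need not follow a normal distribution. No paired analysis was possible because the table holds 1 value per group, and for the same reason no replicate was left out. The FPKM scale depends on Cuffdiff's normalisation of libraries, which is not given in the sources used here.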
